A study of Mus musculus with 6 samples.

Results

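Genes that move fatty acids into the cell, build and desaturate them, and coat their storage droplets were followed in cultured mouse cells. The labels name these as aortic endothelial cells. The 10 genes, Lpl, Cd36, Fabp4, Fabp5, Acly, Fasn, Scd1, Scd2, Plin2 and Plin4, were found by symbol among the 54532 genes of the count table. All 10 passed the filter on low counts, which left 14814 genes for testing. The 6 libraries came from primary cultures (MAEC in the labels) labelled with an endothelial-specific knockout of the pluripotency factor OCT4. Every library carries that label. A group of 3 libraries came from female and a group of 3 from male mice, all grown untreated in F-12 medium with fetal bovine serum, antibiotics, heparin and endothelial growth factors. The driver of the knockout, the strain and the age of the mice are not given in the sources used here, and the wild-type littermate cultures were not analysed here. The comparison is therefore between the sexes within the knockout, and it says nothing of the knockout itself. The labels do not say whether libraries of a sex came from separate animals or cultures, and a p-value here measures only the spread between these libraries, which may be technical.

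Fatty acids reach endothelial cells bound to albumin or released from lipoprotein triglyceride by lipoprotein lipase. Scavenger receptors and transporters take them across the membrane, and small fatty acid binding proteins carry them through the cytosol. Cells also make fatty acids from citrate by way of cytosolic acetyl-CoA. Stearoyl-CoA desaturases turn the saturated products into monounsaturated ones, and the surplus is esterified and kept in droplets coated by perilipins.

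Each library held 19299742 to 23064738 counts. Levels are given as CPM, read counts scaled to a common library total adjusted by TMM, on which 3 counts, the limit that a count of 0 allows, corresponded to 0.123 to 0.154 CPM. Endothelial identity was not borne out by the defining transcripts: of 18 endothelial markers 14 were under 1 CPM in every library, Cdh5 had 0 to 4 counts, and Cldn5, Emcn, Robo4 and Sox17 had 0. The list summed to 96.1 to 108.5 CPM in female and 237 to 300.2 CPM in male cells, mostly from Eng, a receptor component that fibroblasts also express (92.2 and 253 CPM). Plvap (log2 fold change -1.39) and Pecam1, at 0.723 and 1.57 CPM, were also lower in the female cells, and Egfl7, at 3.60 and 2.71 CPM, was not called. Fibroblast markers summed to 17756 to 19812 CPM in female and 8313 to 8856 CPM in male cells, but they did not share 1 direction. Of 14 tested, 10 were higher in the female cells, among them Dcn (6375 and 442 CPM) and Col3a1 (3697 and 2344 CPM). The 3 lower ones were Fbln1 (70.9 and 596 CPM), Mfap5 (8.48 and 40.9 CPM) and Col1a2 (1184 and 1615 CPM). Col1a1, at 1176 and 1143 CPM, was not called. The cells are therefore described by their labels and sex. Whether the sequenced cells carry the endothelial-specific deletion was not tested. How far the endothelial and fibroblast markers take part in the differences below was not tested either.

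In the female libraries 7 of the 10 genes were higher and 1, Fabp4, was lower at an adjusted p under 0.05 in edgeR's quasi-likelihood test, while Fabp5 and Lpl were not called. Scd1 and Plin2 differed most in the female direction, by log2 fold changes of 1.36 ± 0.08 and 1.01 ± 0.08 (SE, n = 3 per sex). These counts stand against a wide background, since 60.7% of all tested genes were called, 30.9% higher and 29.8% lower in the female libraries. For 9 of the 10 genes no female value overlapped a male value, as was so for 67.1% of all genes. The median log2 fold change of the 10 genes was 0.49, beside -0.01 over all genes. The 10 were chosen with earlier results of these data known, so this is a description and not a test. With a correction for coding transcript length, described below, the median of the 10 was 0.16, beside -0.02 over all genes. In that fit 5 of the 10 were called higher and 2 lower, beside 4061 higher and 4395 lower of all 14814 genes. In bulk samples fewer cells of a type and less RNA per cell cannot be told apart.

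**Figure D1:**
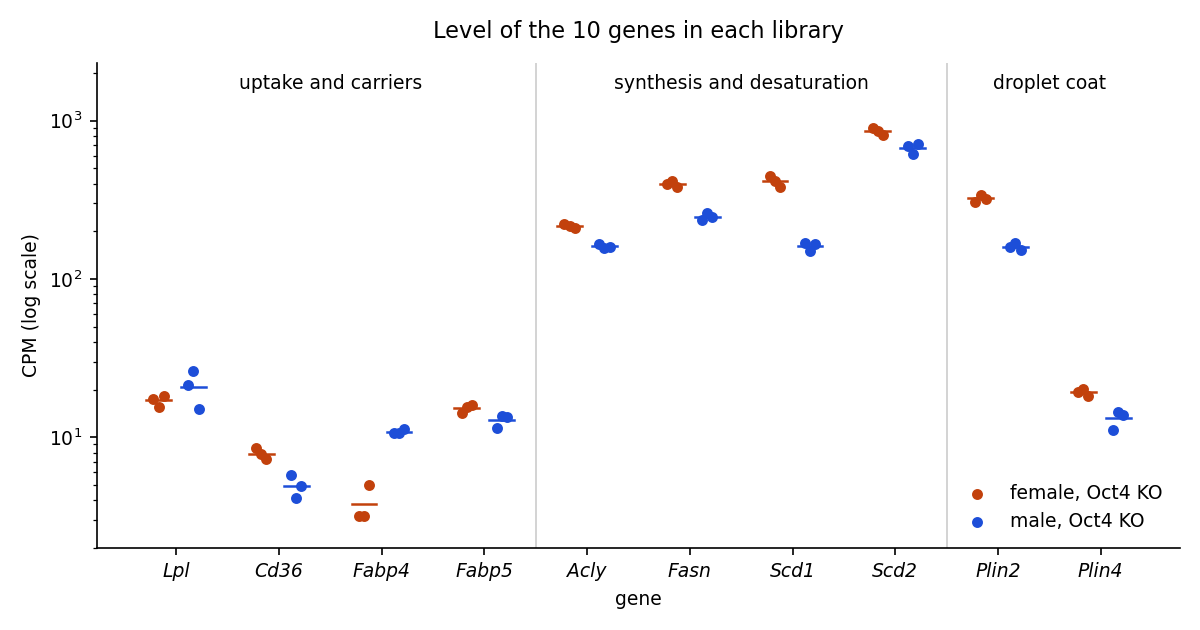
CPM (log scale) of the 10 genes in each library, with points for the 3 female and 3 male libraries and bars for the mean of each sex. Fabp4 is the gene with all male points above the female ones, the points of Lpl overlap, and the female points are higher for the other genes.

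The uptake genes did not move as a group. Lpl, the secreted lipase that frees fatty acids from lipoprotein triglyceride (chromosome 8, 68880491 to 68907448 in mm10), was at 17.4, 15.5 and 18.2 CPM in the female and 21.4, 26.1 and 15.1 CPM in the male libraries. The male libraries spanned the female range, 1 of them lying below it. The log2 fold change was -0.29 ± 0.17 with a 95% interval of -0.64 to 0.07 (edgeR adjusted p = 0.152). Without male replicate 3, the library with the lowest value, it was -0.48 and passed the threshold.

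Cd36, the scavenger receptor that takes up long-chain fatty acids and oxidised lipoproteins (chromosome 5, 17781690 to 17888801), was at 8.50, 7.84 and 7.30 CPM in the female libraries. Its male values were 5.79, 4.13 and 4.89 CPM, all below the female ones. The log2 fold change of 0.67 ± 0.20 passed the threshold (edgeR adjusted p = 0.00763). Only 82 to 176 reads per library stand behind these values, and the 95% interval ran from 0.25 to 1.09.

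Fabp4, the fatty acid binding protein best known from adipocytes, macrophages and capillary endothelium (chromosome 3, 10204088 to 10208576), was the member that fell in the female cells. It was at 3.19, 3.18 and 4.97 CPM in the female and 10.6, 10.6 and 11.2 CPM in the male libraries. The male libraries lay close together and well above all female ones, and the third female library was higher than the other two. The means, 3.78 ± 1.03 and 10.8 ± 0.344 CPM (SD, n = 3), differed 2.87-fold (log2 fold change -1.52 ± 0.21, edgeR adjusted p = 7.23e-06). The level was low, 62 to 98 reads per female and 211 to 273 per male library. Markers of adipocytes were also at lower levels in the female cells, summing to 13.5 to 15.9 CPM in female and 36.6 to 49.7 CPM in male cells, most of it from Pparg and Lipe, and their part in the Fabp4 difference was not tested. Of 15 adipocyte markers measured, 12 were under 1 CPM in every library, and Cfd, Cidea, Cidec, Lep, Pck1, Ucp1 and Car3 had 0 counts in all 6. Macrophage markers summed to 70.2 to 88.3 CPM in female and 82.3 to 98.9 CPM in male cells, with Ptprc, Adgre1, C1qa, C1qb, C1qc, Fcgr1, Tyrobp and Msr1 at 0 counts. Within that list Lyz2, at 9.89 and 54.6 CPM, and Trem2, at 1.41 and 4.62 CPM, were lower in the female cells like Fabp4, while Cd14, at 63.9 and 26.5 CPM, and Cd68, at 5.78 and 2.41 CPM, were higher. Their part was not tested. Markers of capillary endothelium that handles lipid summed to 33.5 to 53.0 CPM in female and 132 to 136 CPM in male cells, nearly all of it from Apln (25.2 and 100.2 CPM) and Aqp1 (15.8 and 33.6 CPM). Kit, the other tested gene of the list, went the other way, at 1.06 and 0.0432 CPM, and the part of these markers was not tested. In that list 7 of 10 genes were under 1 CPM throughout, and Gpihbp1, the capillary anchor of lipoprotein lipase, Tcf15 and Rbp7 had no count at all.

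Fabp5, the close relative of Fabp4 that is common in epithelium and also found in endothelium, lies 187481 bases from it on the same chromosome (10012548 to 10016607). It was at 14.2, 15.5 and 16.0 CPM in the female and 11.5, 13.5 and 13.4 CPM in the male libraries. The groups did not overlap, but the log2 fold change of 0.25 ± 0.14, with an interval of -0.04 to 0.55, did not pass the threshold (edgeR adjusted p = 0.128). The other family members showed a different picture. Fabp1, Fabp2, Fabp6, Fabp7, Fabp9, Fabp12 and Pmp2 had 0 counts in all 6 libraries, and Fabp3, the heart-type protein, was at 3.14 CPM in female and 1.14 CPM in male cells, a log2 fold change of 1.45 ± 0.34 (edgeR adjusted p = 0.00142).

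The pair was also compared as a ratio within each library, with counts taken per kilobase of the deposited gene length. Fabp4 made up 15.1, 14.0 and 19.8% of the sum of Fabp4 and Fabp5 in the female libraries. In the male libraries it made up 42.4, 38.5 and 40.0%, so the groups lay apart by a gap larger than either spread. The means were 16.3 ± 3.06% and 40.3 ± 1.96% (SD, n = 3), a difference of -24.0 percentage points. The two-sided exact permutation test gave p = 0.1, the smallest value that 3 against 3 libraries can give. The coding transcripts of the pair are of like length, 896 and 987 bases.

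All 4 genes of synthesis and desaturation were higher in the female libraries. Acly, ATP citrate lyase, which makes cytosolic acetyl-CoA from citrate (chromosome 11, 100476353 to 100528000), was at 221, 216 and 210 CPM in the female and 166, 156 and 160 CPM in the male libraries. The difference was small beside that of Scd1 but every female library lay above every male one (log2 fold change 0.43 ± 0.07, edgeR adjusted p = 9.29e-05). Fasn, the multi-domain synthase that builds palmitate (chromosome 11, 120805846 to 120824547), was at 399.6, 414 and 382 CPM in the female libraries. Its male values were 237, 261 and 244 CPM, again with no overlap (log2 fold change 0.69 ± 0.08, edgeR adjusted p = 6.48e-07). With the correction for coding transcript length, Fasn was at 0.002 and no longer called.

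Scd1, a stearoyl-CoA desaturase of the endoplasmic reticulum that makes oleate and palmitoleate (chromosome 19, 44394451 to 44407709), was at 444, 418 and 381 CPM in the female libraries. In the male libraries it was at 168, 149 and 167 CPM, so that the lowest female value was more than double the highest male one. The means, 414 ± 31.6 and 161.5 ± 10.5 CPM (SD, n = 3), differed 2.56-fold (log2 fold change 1.36 ± 0.08, edgeR adjusted p = 4.08e-10). Scd2, a desaturase with the same activity that lies 87587 bases away (44293676 to 44306864), was the most abundant member in counts. It was at 891, 857 and 816 CPM in the female and 686, 615 and 713 CPM in the male libraries, higher in every female library (log2 fold change 0.35 ± 0.08, edgeR adjusted p = 0.00104), a call that the same correction also removed. The other copies of this cluster were at low levels. Scd3 had a single read in all 6 libraries, and Scd4 was at 1.01 and 0.658 CPM in the female and male means (edgeR adjusted p = 0.285). The handling of any reads shared by these related genes is not given, so the split between copies is uncertain.

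Within the desaturase pair the balance differed between the sexes. Scd1 made up 35.9, 35.5 and 34.5% of the summed Scd1 and Scd2 per kilobase in female libraries, against 21.6, 21.5 and 20.9% in male ones. The spread within a sex was under 1 percentage point (SD 0.748 and 0.394, n = 3), beside a difference of 13.9 points. The two-sided exact permutation test again gave the smallest possible p, 0.1. Scd1 and Scd2 have coding transcripts of 4832 and 5455 bases, again of like length.

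**Figure D2:**
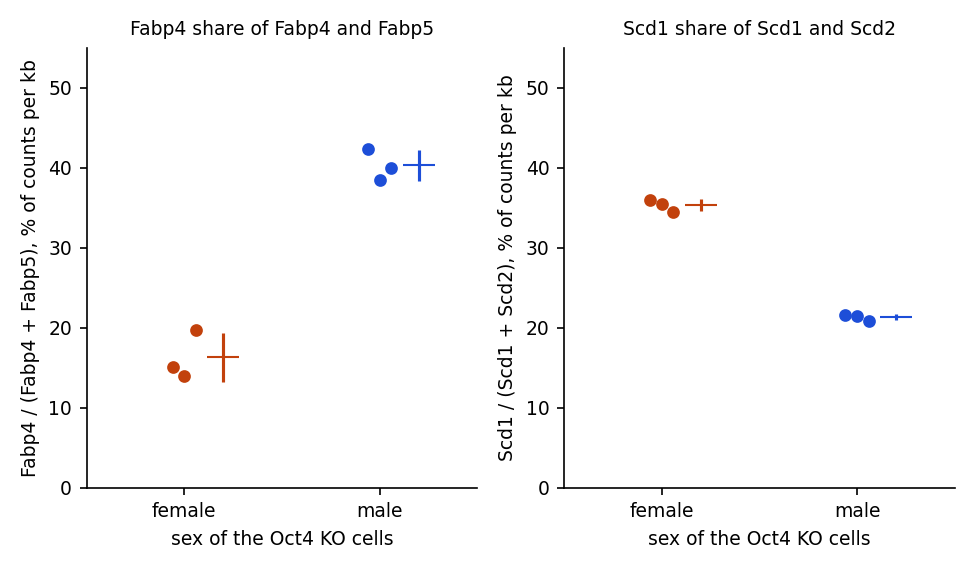
Share (percent) of Fabp4 in the summed Fabp4 and Fabp5, and of Scd1 in the summed Scd1 and Scd2, per kilobase of gene length, in each library, with a cross for the mean ± SD of each sex. Female libraries lie at 14.0 to 19.8% and male libraries at 38.5 to 42.4% for Fabp4, and at 34.5 to 35.9% and 20.9 to 21.6% for Scd1.

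The droplet coats were higher in the female libraries too. Plin2, the perilipin found on droplets of most cell types and stabilised by the lipid it coats (chromosome 4, 86648386 to 86670060), was at 305, 341 and 320 CPM in the female libraries. Its male values were 159, 167 and 153 CPM, far below and close together. The means, 322 ± 17.8 and 159.6 ± 7.38 CPM (SD, n = 3), differed 2.02-fold (log2 fold change 1.01 ± 0.08, edgeR adjusted p = 7.22e-09). Plin4, a perilipin that binds nascent droplets and is abundant in adipocytes (chromosome 17, 56100591 to 56109803), was at 19.4, 20.2 and 18.1 CPM in the female and 11.1, 14.5 and 13.8 CPM in the male libraries. Its log2 fold change of 0.55 ± 0.14 passed the threshold (edgeR adjusted p = 0.00261), though it did not when coding transcript length was corrected for. The gene overlaps Hdgfl2 on the opposite strand by 17 bases. Plin1 and Plin5 were near the limit of detection. Plin1, the coat of the adipocyte droplet, had 0 to 4 counts per library and Plin5, the coat of oxidative tissue, 0 to 6. Plin3, which is general like Plin2, was at 137 ± 12.4 CPM in the female and 111 ± 6.53 CPM in the male libraries (SD, n = 3), a log2 fold change of 0.30 (edgeR adjusted p = 0.00658) that was not called with total counts only or with transcript length corrected for.

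**Figure D3:**
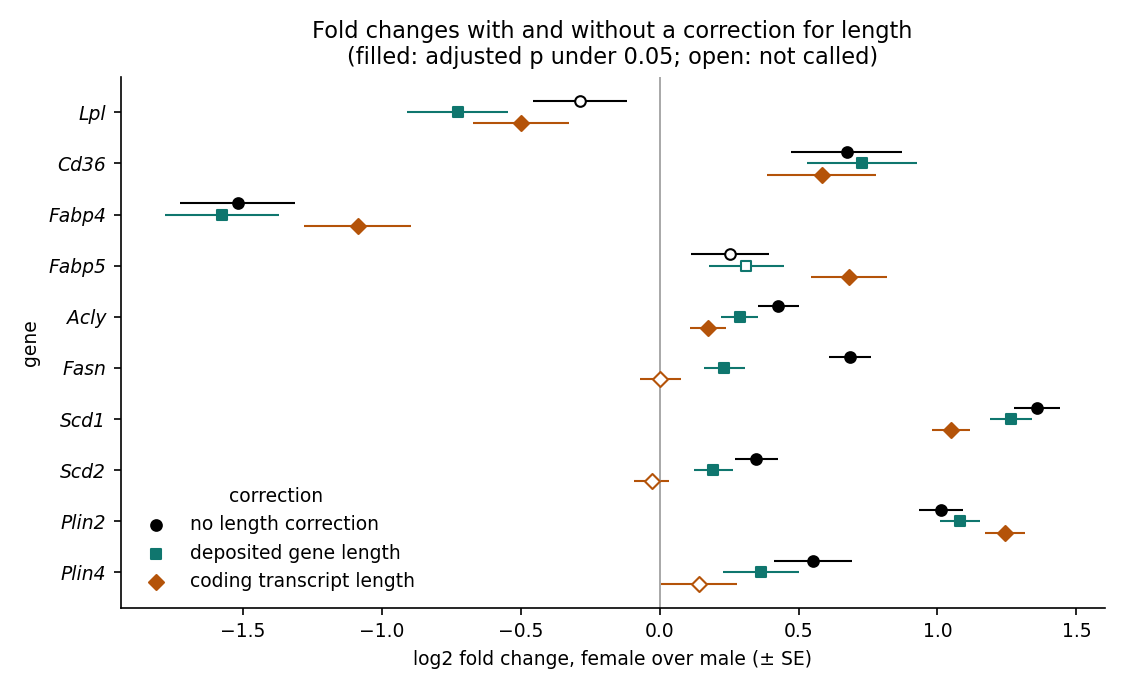
Log2 fold change (female over male) of each of the 10 genes with its SE, as fitted and with a correction for the deposited gene length and for coding transcript length. Scd1, Plin2, Cd36, Acly and Fabp5 stay above 0 and Fabp4 and Lpl below 0 in all 3 fits, though Fabp5 and Lpl are not called in every fit. Fasn, Scd2 and Plin4 move to between -0.03 and 0.14 with the coding transcript length.

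Fold changes across genes followed transcript length, and this bears on several of the 10. In 5 bins of nearly equal size, over the 10402 tested genes that averaged 5 CPM or more and had a known coding transcript, from the shortest to the longest coding transcript, the median log2 fold change was -0.43, -0.18, -0.01, 0.18 and 0.49. Fabp4 and Fabp5 lie in the shortest bin, and Scd2, Plin4 and Fasn in the longest. With coding transcript length corrected for, an alternative chosen after seeing the data, 57.1% of all genes were called, 6999 of them among the 8993 called without it. Scd1 was then at 1.05, Plin2 at 1.24, Cd36 at 0.58, Acly at 0.17 and Fabp4 at -1.09, all still called. Fasn was at 0.002, Scd2 at -0.03 and Plin4 at 0.14, none of them called (edgeR adjusted p = 0.984, 0.722 and 0.391). Fabp5 was at 0.68 (edgeR adjusted p = 0.000462) and Lpl at -0.50 (edgeR adjusted p = 0.0217), so both became calls.

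With the deposited gene length in place of transcript length, 58.8% of all genes were called. Fasn stayed called at 0.23, Scd2 at 0.19 and Plin4 at 0.37, and Lpl was called lower at -0.73 (edgeR adjusted p = 0.0110, 0.0268, 0.0291 and 0.00251). That length counts the union of exons, which for Fabp4 and Lpl is several times the coding transcript, 4489 against 896 bases and 10478 against 4115 bases. Why fold changes followed length was not tested. Over the 15 alternatives tried, Scd1, Plin2, Cd36, Acly and Fabp4 were called in every one. Their log2 fold changes, in that order, were 1.05 to 1.42, 0.90 to 1.24, 0.55 to 0.80, 0.17 to 0.45 and -1.76 to -1.09. The share of all tested genes called in every alternative was not counted. Whether the 10 genes kept their calls more often than other genes was therefore not tested.

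**Figure D4:**
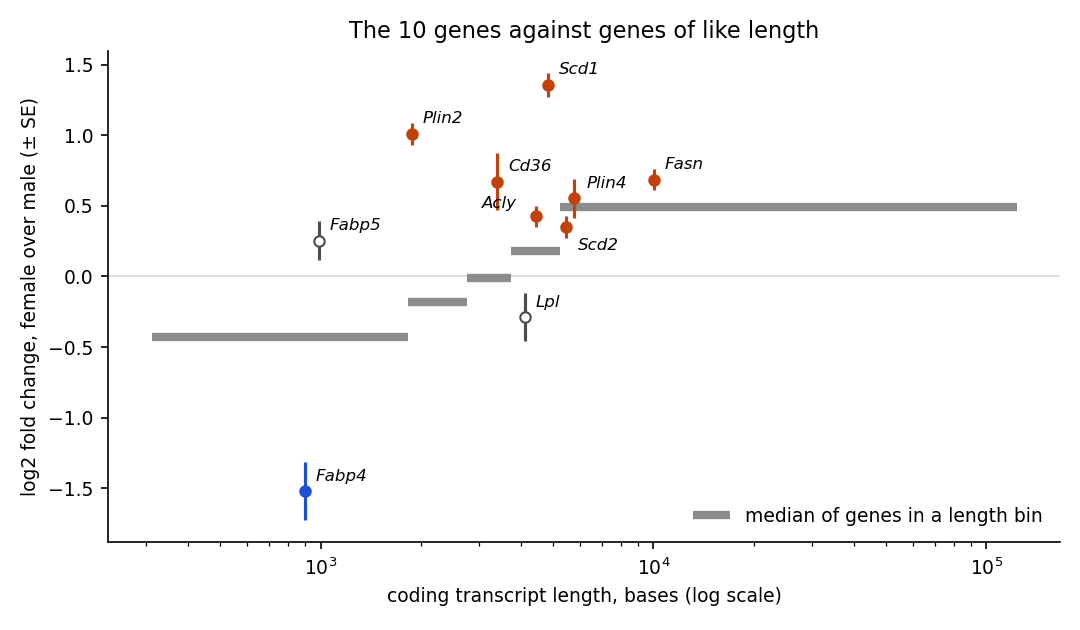
Log2 fold change (female over male, ± SE) of the 10 genes against coding transcript length in bases (log scale), with grey bars for the median of the 10402 genes with a known coding transcript and at least 5 CPM in each of 5 bins by length. Filled points are called and open points not. Scd1, Plin2, Cd36 and the uncalled Fabp5 lie well above the bar of their bin, and Acly and Fasn less far above it. Fabp4 and Lpl lie below it, and Plin4 and Scd2 near it.

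Levels between genes were compared per kilobase of coding transcript. In the female cells Plin2 (171 ± 9.41 CPM per kilobase) and Scd2 (157 ± 6.95, SD, n = 3) led, with overlapping libraries, followed by Scd1 at 85.7, Acly at 48.8, Fasn at 39.6 and Fabp5 at 15.4. Fabp4 and Lpl, at 4.22 and 4.14 CPM per kilobase, overlapped, and Plin4 at 3.35 and Cd36 at 2.32 came last. In the male cells Scd2 led alone at 123 ± 9.27 CPM per kilobase, ahead of Plin2 at 84.5, Acly at 36.3, Scd1 at 33.4, Fasn at 24.6 and Fabp5 at 13.0. Male Fabp4, at 12.1 CPM per kilobase, overlapped Fabp5, and Lpl at 5.07, Plin4 at 2.28 and Cd36 at 1.45 followed. All other neighbours in either order had no overlapping libraries. Scd1 thus stood above Acly in the female and below it in the male order, but this depended on the length used. Per kilobase of deposited gene length, male Scd1 lay above male Acly, at 33.4 and 30.4 CPM per kilobase. On that scale female Scd2, at 157, also lay above female Plin2, at 91.7. The low end changed too. Female Plin4 and Cd36, at 3.33 and 2.19, lay above female Lpl and Fabp4, at 1.63 and 0.841. Male Plin4, at 2.27, lay above male Lpl, at 1.99. The 10 genes summed to 2173 to 2324 CPM in female and 1418 to 1495 CPM in male cells, and Scd2 alone gave 37.1 to 38.4% and 43.4 to 47.7% of that sum.

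Promoter sequence could be read for 5 of the 10 genes from the RefSeq table of GRCm38.p6: Acly, Cd36, Fasn, Plin2 and Plin4. The 250 bases before the start of Fasn, Acly and Plin2 are shown because these are the members with an entry that were called higher at more than 100 CPM. They lie on the minus strand at chr11:120824548-120824797, chr11:100528001-100528250 and chr4:86670060-86670309 and read 5′ to 3′ toward the start. Capitals mark matches, on either strand, to the letters CCAAT (the box bound by NF-Y), GGGCGG (the GC box bound by SP factors) and AGGTCA (a nuclear receptor motif unit).
Fasn: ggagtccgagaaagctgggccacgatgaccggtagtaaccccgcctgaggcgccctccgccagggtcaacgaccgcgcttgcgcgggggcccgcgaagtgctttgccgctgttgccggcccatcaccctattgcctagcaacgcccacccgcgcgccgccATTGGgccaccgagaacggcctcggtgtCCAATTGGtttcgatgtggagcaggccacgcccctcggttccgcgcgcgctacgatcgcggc
Acly: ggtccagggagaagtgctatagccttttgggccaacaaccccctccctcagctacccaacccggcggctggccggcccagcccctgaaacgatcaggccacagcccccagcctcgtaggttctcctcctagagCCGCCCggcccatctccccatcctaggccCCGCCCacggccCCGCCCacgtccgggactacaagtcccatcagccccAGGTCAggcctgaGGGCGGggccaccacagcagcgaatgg
Plin2: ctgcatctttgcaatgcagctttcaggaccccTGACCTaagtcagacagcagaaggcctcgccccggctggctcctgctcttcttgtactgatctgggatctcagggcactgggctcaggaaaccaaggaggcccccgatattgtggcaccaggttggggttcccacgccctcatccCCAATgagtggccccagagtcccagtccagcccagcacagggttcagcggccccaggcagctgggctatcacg
The Fasn window held CCAAT 3 times, 2 of them overlapping on opposite strands in the run of 8 capitals. Acly held 4 GC boxes and 1 AGGTCA and had no CCAAT in this window, and Plin2 held 1 CCAAT and 1 AGGTCA. Of the 5 member windows 4 held CCAAT, 2 GGGCGG and 3 AGGTCA, against 33.8%, 32.7% and 14.0% of 32851 promoters of the same length. The letters TCACNCCAC, a form of the sterol element bound by SREBP, were in 0 of the 5 and in 1.05% of all, and the E-box CACGTG in 0 and in 6.02%. A match of letters is a description and not a bound site.

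The remaining genes of these pathways were taken from lists, and they did not share 1 direction. Over all tested genes 30.9% were higher and 29.8% lower in the female libraries. Of 33 genes of fatty acid uptake and activation 18 were tested, 7 higher and 7 lower in the female libraries, with a median log2 fold change of -0.01. Angptl4, a secreted inhibitor of lipoprotein lipase, was at 143, 111 and 129 CPM in the female and 640, 699 and 683 CPM in the male libraries (log2 fold change -2.40 ± 0.09, edgeR adjusted p = 8.52e-13). That is 5.28-fold more in the male cells, with no overlap. Acsbg1, an acyl-CoA synthetase, was at 0.314 ± 0.184 CPM in the female and 22.2 ± 0.881 CPM in the male libraries (SD, n = 3). Sel1l, needed for the maturation of lipoprotein lipase, and Lipa, the lysosomal acid lipase, were higher in the female cells by 1.28 and 0.89 on the log2 scale.

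Of 23 tested genes of synthesis, elongation and desaturation outside the 10, 5 were higher, 7 lower and 11 not called in the female libraries (median 0.01), and 8 were higher with the deposited length corrected for. Acaca, acetyl-CoA carboxylase, which makes the malonyl-CoA that Fasn uses, was at 99.1, 108 and 105 CPM in the female and 44.9, 52.1 and 48.0 CPM in the male libraries. The groups lay far apart (log2 fold change 1.11 ± 0.09, edgeR adjusted p = 8.91e-09), and the change was 0.45 with coding transcript length corrected for. Elovl7, an elongase, was higher at 3.02, while Hacd3, an acyl-CoA dehydratase of elongation, and Fads3, a fatty acid desaturase family member, were lower at -1.56 and -1.04. Chosen after their values were seen, the elongase Elovl6 was higher by 1.02, and Fads1 and Fads2, which desaturate polyunsaturated chains, were lower at -0.45 and -0.35. The Fads2 value turned to 0.03 with the deposited length corrected for.

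Among genes of droplet storage and lipolysis 24 of 33 were tested, of which 10 were higher and 9 lower (median 0.18), and the count of higher genes was 6 when only total counts were used for scaling. The acyltransferases Agpat3 and Agpat5, the droplet protein Aup1 and Bscl2, the seipin of droplet formation, were all lower in the female cells at -0.94, -1.02, -0.59 and -0.73. Dgat2, which makes triglyceride, was higher by 0.91 and Lipe, the hormone-sensitive lipase, lower at -0.56, both named after their values were seen. 

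Of 26 regulators of lipid genes 14 were higher and 6 lower (median 0.23). Srebf1, which drives synthesis genes, was at 164, 146 and 163 CPM in the female and 115, 120 and 118 CPM in the male libraries (log2 fold change 0.42 ± 0.08, edgeR adjusted p = 0.000191). Pparg, the fatty acid sensing receptor of adipocytes, went the other way, at 6.09, 4.51 and 5.98 CPM against 28.1, 29.9 and 20.8 CPM in the male libraries (log2 fold change -2.24 ± 0.17, edgeR adjusted p = 7.76e-09). Ppargc1a, a coactivator of oxidative genes, was at 15.3 ± 3.48 CPM in the female and 0.408 ± 0.272 CPM in the male libraries (SD, n = 3). Ebf1 was higher by 2.29 and Zfp423 lower at -3.63, both transcription factors of the fat lineage. Srebf1 was named after its value was seen.

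Among genes of fatty acid oxidation, 5 of 32 tested were higher, 14 lower and 13 not called (median -0.22), and the count of higher genes was 3 under 9 of the 15 alternatives. With coding transcript length corrected for, 4 were higher and 12 lower. Pdk4, the kinase that shuts off pyruvate dehydrogenase when fat is burned, was at 8.84, 9.43 and 8.06 CPM in the female and 34.5, 25.8 and 31.8 CPM in the male libraries. The log2 fold change was -1.81 (edgeR adjusted p = 1.05e-08). Eci1, Etfa and Hadhb, mitochondrial enzymes of beta-oxidation and its electron transfer, were lower at -1.37, -1.02 and -0.74. Cpt1a, the gate of mitochondrial entry, was higher by 0.46 and was named after its value was seen.

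**Figure D5:**
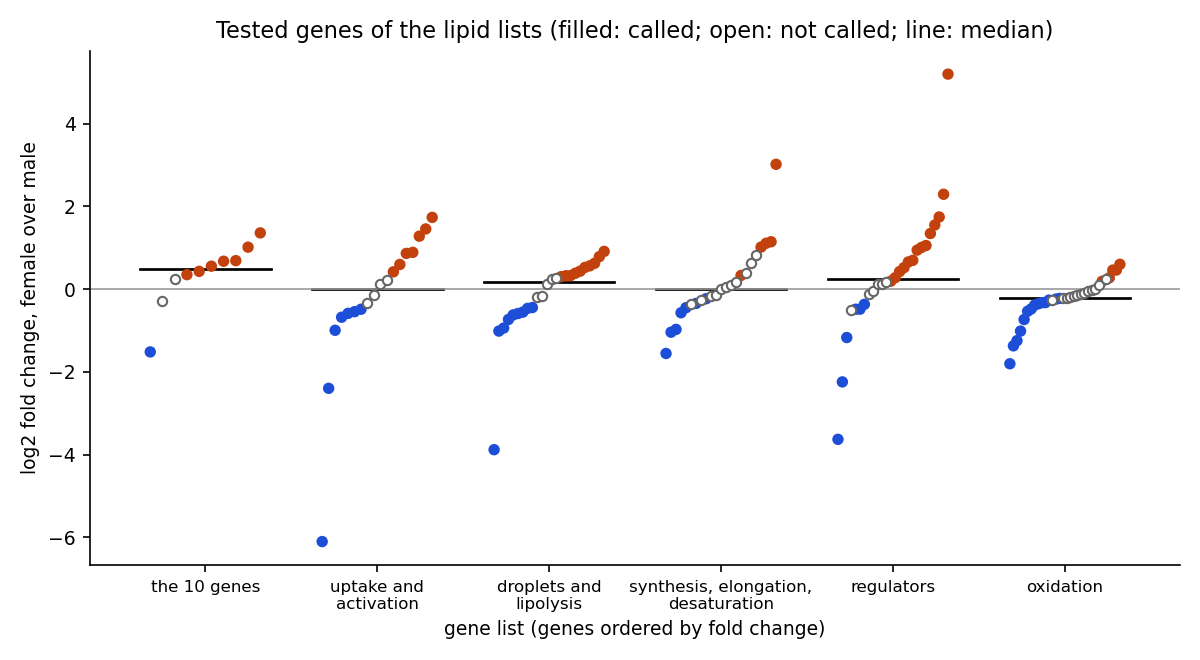
Log2 fold change (female over male) of every tested gene of the 10 and of the 5 lipid lists, ordered by fold change within a list, with filled points for called and open points for uncalled genes and a line at the median. The medians are 0.49 for the 10 genes, -0.01, 0.18, 0.01 and 0.23 for uptake, droplets, synthesis and regulators, and -0.22 for oxidation.

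The profile across the 6 libraries was compared with those of the 10812 tested genes whose mean reached 5 CPM, by the root mean square difference of centred log2 values (CPM plus 0.5). The genes most like Scd1 were Ereg, a growth factor of the EGF family (0.0426), and Rab7b, a small GTPase of endosomes (0.0504). Plin2 was most like Lgmn, a lysosomal protease (0.0345), and Mlxip, a sugar-sensing transcription factor (0.0402). Fabp4 was most like the ribosomal protein gene Rps21 (0.0858) and Foxs1 (0.0860), with 3 genes within 0.1. Such closeness was common for some members and rare for others. For Lpl, 5 genes lay within 0.1, led by Uchl5 and Atp5s, while 615 did for Acly, led by Cep120 and Dctn4, and 552 for Scd2, led by Wipi1 and 9530068E07Rik. Between these stood Fasn with 308 (Arid5a and Wasf2 first), Fabp5 with 256 (Irf2 and Trappc12), Plin4 with 86 (Foxn3 and Slc27a1), and Cd36 with 75 (Zbtb43 and Miga1). With 6 libraries in 2 groups, a profile mostly holds the difference between the sexes. Lpl was an exception, as its male values of 15.1 to 26.1 CPM spanned the female ones. Among the 10, Scd2 and Acly were the closest pair (0.0659) and Fabp4 and Scd1 the farthest (1.42).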

How the data were processed

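Poly-A RNA of 6 libraries, 3 female and 3 male, was copied from random hexamers, per the labels' protocols. Per the submitters' processing notes, the authors aligned reads to mm10 with HISAT2 2.0.5 and counted them per gene with featureCounts 1.5. The deposited table holds raw read counts and gene lengths, and 0 columns of other samples. Strand and multi-mapping settings are not given in the sources used here.

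Counts were tested female over male with edgeR 4.0.16 (R 4.3.3; filterByExpr, TMM scaling, quasi-likelihood test, Benjamini-Hochberg over 14814 genes, threshold 0.05), checked on simulated data. CPM used effective library sizes. Shares of paralogs used the exact permutation test. Coding transcript lengths came from GENCODE M21, and length was corrected for with a spline of 5 degrees of freedom per library. Alternatives were DESeq2 1.42.0, limma-voom (limma 3.58.1), other scalings, no filter, a replicate block, length corrections, and leaving out each library. Within a sex, every pair of libraries differed beyond counting noise, with 7.00 to 14.7 chi-square units for each degree of freedom.

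The 10 genes and all lists were chosen with earlier results of these data known. Named were the 10, up to 4 genes of each other list with the smallest adjusted p, genes at 0 counts where needed, and the 2 nearest profiles of each member; other names were added after their values were seen. Reads carry no molecular identifiers, so the limit of 3 counts covers counting error only. Of the lists not described with the genes, 18 endothelial markers had 4 tested, 0 higher and 3 lower in the female libraries, 15 fibroblast markers had 14 tested, 10 higher and 3 lower, and 12 smooth muscle markers had 8 tested, 2 higher and 4 lower.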

Additional observations from a re-analysis of the deposited data

How the results depend on the processing

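Over the 10 genes, 141 of 150 values under the 15 alternatives kept their direction and side of the threshold. For the 74 other named genes 1070 of 1110 values did so. With coding transcript length corrected for, added after seeing the data, Fabp5 became called (0.68), Plin4 (0.14) and Fasn (0.00197) lost the call, Scd2 turned to -0.0294, and the Fabp4 share differed by -27.1 points per kilobase of transcript. Lpl became called lower, which made 2 members lower, with total counts only (-0.40), with the deposited length (-0.73), with that length and the replicate block (-0.70) and with transcript length (-0.50); leaving out 1 library gave -0.48 to -0.11 and 1 to 2 members lower. Of all genes 8993 were called, 8525 with the replicate block, 8709 with length, 8369 with both, 8456 with transcript length, and 8236 to 8841 without 1 library. Same-numbered libraries did not deviate together (correlations -0.0164, -0.104 and -0.153). With so few libraries per sex, centred on their own mean, these values cannot show that a small shared effect is absent. Total counts moved the median of all genes by -0.12 and the split to 3956 higher and 5294 lower, from 4580 and 4413. Of the 74 other genes, values reversed for Irf2 (-0.0793 with length, -0.0779 with length and block), Trappc12 (-0.22 and -0.22), Fads2 (0.0257 and 0.0310), Atp5s (0.0459 and 0.0576, and 0.0447 with transcript length), Uchl5 (0.0162 with length and block, 0.0845 with transcript length) and Foxn3 (-0.0822 with transcript length); the cause was not tested. Depth limits Fabp4 and Cd36, at 62 to 273 and 82 to 176 reads per library.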
